A study of Mus musculus with 24 samples.

Results

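Myl9, Fscn1 and 8 further genes of the contractile and actin-bundling machinery were followed across 7 mouse cell lines on 24 single-colour Agilent arrays. The 10 genes were Myl9, Fscn1, Cgnl1, Acta2, Tagln, Cnn1, Cnn2, Tpm1, Tpm2 and Cald1. They were found by matching the RefSeq transcript given for each probe to these symbols, which gave 20 of the 56488 probes used and 10 of the 45547 gene names on the array. The set was put together with melanoma results of these arrays already known. Values of the melanoma lines against M are therefore described here without a test. Tests of the 10 genes were made only among the brain-derived lines and between the myeloid lines described below. Whether results among the brain-derived lines had a part in the choice is not known.

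The 5 melanoma lines all derive from B16F1, a mouse melanoma line, and carry GFP, green fluorescent protein, in their names. B16F1-GFP-M (M, 3 arrays) is the parental line. B16F1-GFP-D (D, 4 arrays) was recovered in the study from mice kept in long tumour dormancy by vaccination with irradiated cells that express GM-CSF. B16F1-GFP-DB#1 (DB#1, 4 arrays), B16F1-GFP-DB#2 (DB#2, 3 arrays) and B16F1-GFP-DB#3 (DB#3, 3 arrays) came from the brain, as a further generation. All 5 were grown in DMEM with serum, so every value is that of cells expanded in culture after recovery and not of cells in the animal. M0 (4 arrays) and J365 (3 arrays) are labelled as myeloid cells, and the labels give neither their genotype nor their treatment. All their titles, and no melanoma title, carry the tag p20, which the labels do not explain. The number of animals behind each line is not given in the sources used here. Nor does any of them say whether arrays of 1 line came from separate cultures, so p-values measure the spread between arrays, which may be technical.

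Contraction in non-muscle cells is driven by myosin filaments that pull on actin and are switched on when the regulatory light chain, one form of which is encoded by Myl9, is phosphorylated. Tropomyosins, caldesmon and calponins lie along the actin filament and set which motors and bundlers may bind it, and fascin, the product of Fscn1, packs filaments into the tight bundles of filopodia. Many genes of this machinery, Acta2, Tagln and Cnn1 among them, are textbook markers of smooth muscle cells and targets of the serum response factor SRF and its myocardin-related cofactors.

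Each level below is a normalized log2 signal, a probe's log2 intensity less the 75th percentile of all probes on that array. A probe is called read on an array where the scanner software marked it as well above background. The share of probes read was 43.6% to 53.8% on 23 arrays and 89.9% on D replicate 3, which stood apart from the rest. The arrays lay on 3 slides of 8 arrays, a slide being the glass that carries them, and each slide held every line. All 7 melanocyte markers were read on every melanoma array, and all 7 blood cell markers on every M0 and J365 array. In bulk RNA, fewer cells that express a gene and less of its RNA per cell cannot be told apart.

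Myl9, the regulatory light chain gene, was read on all 14 arrays of D and the DB lines and on no M array. Its 1 probe stood at -5.02, -4.42 and -4.26 in M. It stood at 0.89, 0.79, 0.28 and 0.71 in D. In DB#1 the values were 2.36, 0.89, 1.39 and 1.06. The lowest array of D thus lay far above the highest of M, and DB#1 replicate 1 was the highest of all 24 arrays. Values of 0.76, 1.11 and 0.71 were seen in DB#2. In DB#3 they were 1.99, 1.54 and 1.97, above every array of D and DB#2. On the 7 myeloid arrays the probe lay between -6.78 and -5.77 and was never read.

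Since Myl9 was not above background in M, its difference is given as a bound, the mean of the bright line against, on each M array, the higher of the probe's own signal and the lowest signal among probes that were read. Myl9 was at least 33.9-fold higher in D than in M, at least 57.2-fold in DB#1, at least 38.7-fold in DB#2 and at least 76.1-fold in DB#3. The measured means were -4.57 ± 0.40 (SD, n = 3) in M, 0.67 ± 0.27 (n = 4) in D, 1.42 ± 0.66 (n = 4) in DB#1, 0.86 ± 0.21 (n = 3) in DB#2 and 1.83 ± 0.25 (n = 3) in DB#3. In falling order the lines that were read were DB#3, DB#1, DB#2 and D, and M, M0 and J365 were below background and have no order. Each neighbouring pair from DB#3 down to D overlapped in its arrays, and the gap lay between D and M.

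Fscn1, the fascin gene, was read on all 17 melanoma arrays, M included, and on no myeloid array. In M its 1 probe stood at -2.74, -2.81 and -3.04. In D the values were 0.43, 0.67, 0.11 and 0.45. The DB#1 arrays gave 0.54, 0.42, 0.91 and 0.67. No array of D or DB#1 came near those of M. The DB#2 arrays, at 0.97, 1.19 and 0.87, were the highest on average, and those of DB#3 stood at 0.35, 0.67 and 0.95. Against M the log2 difference was 3.28 ± 0.17 (SE) in D, 3.50 ± 0.17 in DB#1, 3.87 ± 0.18 in DB#2 and 3.52 ± 0.18 in DB#3, which is 9.69-fold to 14.6-fold. The falling order of the lines that were read was DB#2, DB#3, DB#1, D and M, and neighbours from DB#2 to D overlapped. The myeloid arrays lay between -6.26 and -5.38, below background.

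Cgnl1 encodes paracingulin, a protein of the plaque under tight and adherens junctions. The probe used for it was read on all 14 arrays of D and the DB lines and on none of M, M0 or J365. In M it stood at -6.40, -6.45 and -6.19. In D it stood at -2.65, -2.32, -0.89 and -2.34, the highest being D replicate 3, the array with the large share of probes read. The DB#1 arrays gave -0.86, -1.30, -1.33 and -1.57. The DB#3 arrays, at -0.83, -1.29 and -1.05, were alike, whereas those of DB#2 were lower, at -3.52, -3.24 and -3.52. The difference from M was at least 6.45-fold in D, 11.1-fold in DB#1, 2.48-fold in DB#2 and 12.8-fold in DB#3. This probe is assigned to 1 of the gene's 2 RefSeq transcripts on the array. The other 3 Cgnl1 probes are assigned to the other transcript, and on melanoma arrays they were read on D replicate 3 alone. One of these, A_51_P239125, had means of -4.87 in DB#1 and -4.69 in DB#3 against -6.52 in DB#2 and -6.36 in M, all of them below background.

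**Figure D1:**
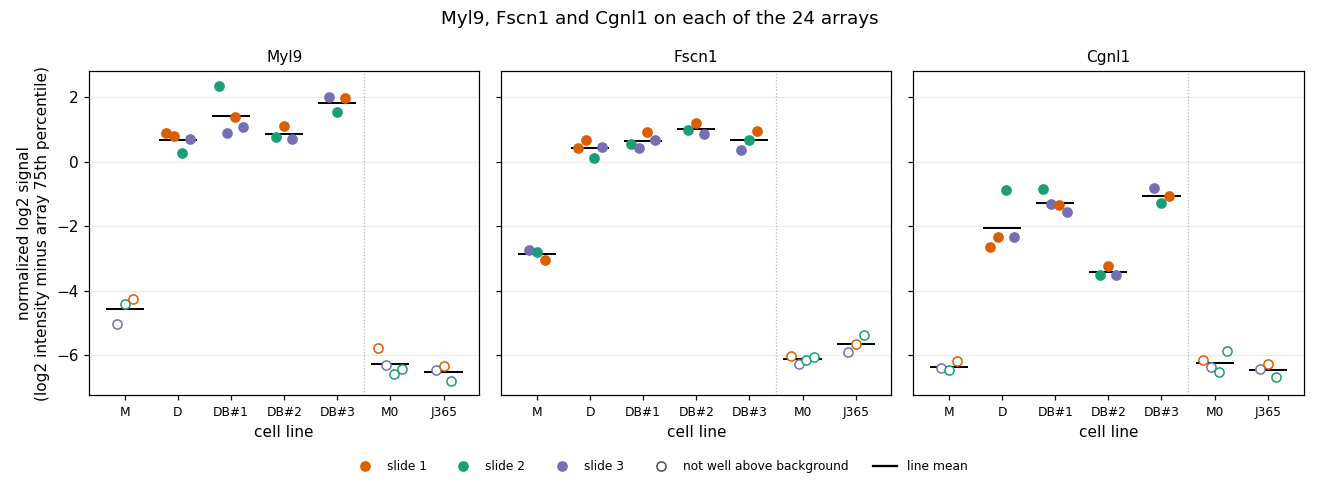
Normalized log2 signal (vertical axis) of Myl9, Fscn1 and Cgnl1 on each array, by cell line (horizontal axis). Points are arrays, coloured by slide and open where the probe was not well above background, and black bars are line means. All 14 arrays of D and the DB lines lie above all 3 M arrays for each gene, and DB#2 is the lowest of the 4 derived lines for Cgnl1.

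These 3 were the only members whose 14 arrays of D and the DB lines all lay above the 3 arrays of M. Of all 21455 genes that were read on every array of at least 1 melanoma line, 279 (1.3%) had that pattern. The members were chosen on this contrast, so nothing is read from 3 of 10 against that share. The same 3 members had the pattern under each of the 7 other settings tried, among them other scalings and the sets without D replicate 1 or without D replicate 3. These settings reuse the same arrays and add no support for the pattern. The mean over probes could not change these members, since only the probe used for each was read on every array of a melanoma line.

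The promoters of Myl9, Fscn1 and Cgnl1 are shown because these genes were high in the same 4 lines, and that of Cnn2 because it carries the same SRF motif as Myl9 without that pattern. Each run is 300 bases in RefSeq's GRCm38.p6 assembly, from 250 bases before the start of the gene to 50 bases after it, written 5′ to 3′ on the gene's strand. Which Cgnl1 transcript begins at the start shown was not checked, so the transcript of the probe used may begin elsewhere. Myl9 lies on the plus strand at chr2:156775214-156775513, Fscn1 on the plus strand at chr5:142960105-142960404, Cgnl1 on the minus strand at chr9:71771553-71771852 and Cnn2 on the plus strand at chr10:79988350-79988649. Capitals mark matches on either strand to the CArG box bound by SRF, to the GC box GGGCGG, to TATAAA and to CCAAT. Only the strict CArG box was searched, in which nothing but A and T lies between CC and GG.
Myl9: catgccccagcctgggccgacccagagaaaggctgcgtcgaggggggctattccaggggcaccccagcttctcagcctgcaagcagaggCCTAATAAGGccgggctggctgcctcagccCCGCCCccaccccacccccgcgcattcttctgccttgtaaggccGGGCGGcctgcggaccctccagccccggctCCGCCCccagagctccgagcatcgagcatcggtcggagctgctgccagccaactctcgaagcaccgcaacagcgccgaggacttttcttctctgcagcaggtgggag
Fscn1: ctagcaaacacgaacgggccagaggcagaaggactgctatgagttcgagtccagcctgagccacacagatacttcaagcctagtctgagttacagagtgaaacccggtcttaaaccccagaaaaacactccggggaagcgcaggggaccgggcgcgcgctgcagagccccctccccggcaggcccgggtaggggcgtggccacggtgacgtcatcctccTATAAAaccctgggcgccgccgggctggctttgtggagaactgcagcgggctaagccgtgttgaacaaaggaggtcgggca
Cgnl1: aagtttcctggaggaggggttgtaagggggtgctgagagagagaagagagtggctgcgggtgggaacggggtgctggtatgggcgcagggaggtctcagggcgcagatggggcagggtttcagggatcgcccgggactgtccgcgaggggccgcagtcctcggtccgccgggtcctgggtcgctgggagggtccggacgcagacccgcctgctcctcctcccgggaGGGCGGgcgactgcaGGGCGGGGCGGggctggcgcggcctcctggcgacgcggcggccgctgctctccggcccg
Cnn2: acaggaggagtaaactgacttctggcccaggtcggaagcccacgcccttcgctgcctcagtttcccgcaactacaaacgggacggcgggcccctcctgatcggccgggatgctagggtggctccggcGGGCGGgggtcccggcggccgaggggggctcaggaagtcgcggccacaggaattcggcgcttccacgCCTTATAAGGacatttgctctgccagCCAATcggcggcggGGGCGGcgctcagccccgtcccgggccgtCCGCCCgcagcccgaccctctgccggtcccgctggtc

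The strict CArG box was found in 1.63% of the 32851 promoters of this length, and among the 10 entries of 9 members it was in those of Myl9 and Cnn2. Looser forms were not searched, so an entry without a match may still hold one. The Acta2 entry, for example, holds the near matches ccctatatgg and ccttgtttgg. In Myl9 it reads CCTAATAAGG and begins 161 bases before the start. In Cnn2 it reads CCTTATAAGG and begins 56 bases before the start. Fscn1 had no strict CArG box but a TATAAA 31 bases before its start, a motif in 13.6% of promoters. GGGCGG, in 35.7% of promoters, was found 3 times each in Myl9, Cgnl1 and Cnn2, and not in Fscn1; a pair of the Cgnl1 matches overlap. CCAAT, in 37.4% of promoters, was in Cnn2 but not in the other 3 shown. The fifth motif searched, CATTCC, was in 14.7% of promoters and in none of the 4 shown. A match is a description of the letters only, and no entry for Tagln was given.

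**Figure D2:**
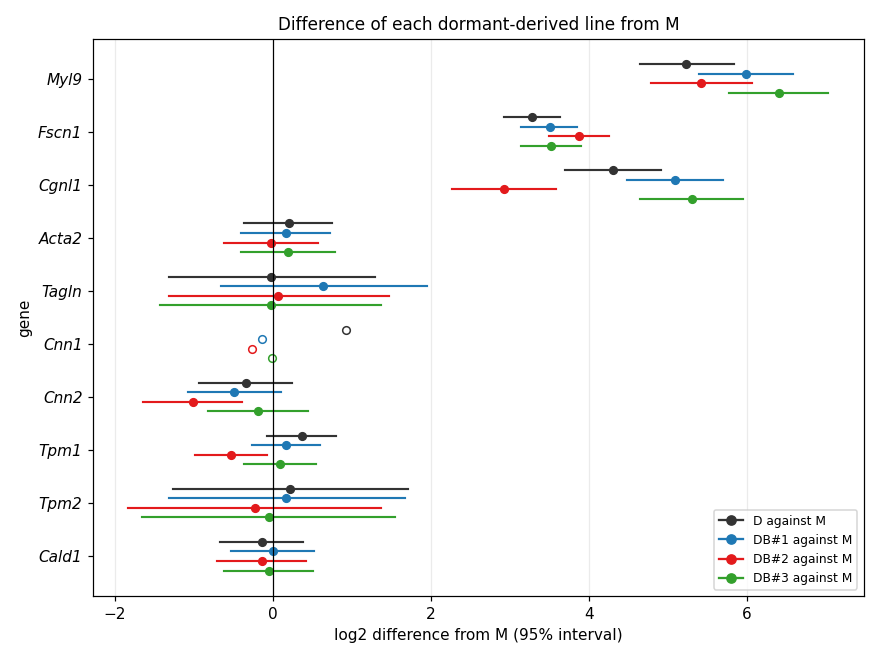
Log2 difference from M (horizontal axis) of the 10 members (vertical axis) in D and the 3 DB lines. Points are fitted differences with 95% intervals from limma, and open points are genes not read on every array of either line, for which no interval was fitted. The members were chosen with melanoma results known, so whether an interval covers 0 is not read as a test. Myl9, Fscn1 and Cgnl1 stand to the right of 0 in all 4 lines, while Cnn2 and Tpm1 lie to the left of 0 in DB#2, at -1.01 and -0.53; values of Myl9 and Cgnl1 in M were below background.

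The other 7 members did not share that pattern. Acta2, the smooth muscle actin gene, was read on all 24 arrays by the probe used, with means of 5.24 ± 0.16 (SD, n = 3) in M, 5.44 ± 0.50 (n = 4) in D and 5.22 to 5.44 in the DB lines. Its log2 differences from M were 0.20 ± 0.27 (SE) in D, 0.16 ± 0.27 in DB#1, -0.02 ± 0.29 in DB#2 and 0.19 ± 0.29 in DB#3, with arrays overlapping in each. The gene has 3 probes for the same transcript, and they did not behave alike. A_52_P420504 was read on all 7 myeloid arrays, at 2.56 to 3.50, but on only 2 of the 17 melanoma arrays, 1 of them D replicate 3, which puts it at least 174-fold higher in M0 than in M. By the probe used, the mean was instead lower in M0 (4.35) than in M. The remaining probe, A_52_P210078, was read on 5 myeloid arrays and on D replicate 3. Actin genes are closely alike in sequence, and whether a probe also binds RNA of another actin gene was not tested, so the Acta2 level in these lines is uncertain.

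**Figure D3:**
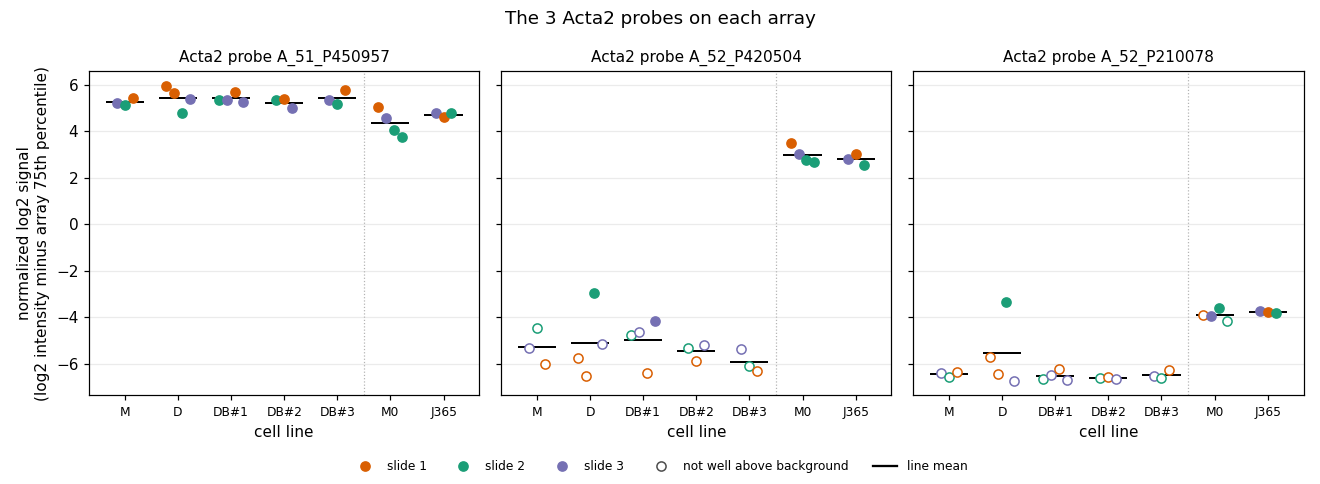
Normalized log2 signal (vertical axis) of the 3 Acta2 probes on each array, by cell line (horizontal axis). Points are arrays, coloured by slide and open where not well above background, with line means as black bars. The first probe was read on all 24 arrays, while A_52_P420504 was read on all 7 M0 and J365 arrays, at 2.56 to 3.50, and A_52_P210078 on 5 of them, at -3.92 to -3.59.

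Tagln, which encodes the calponin-like actin-binding protein transgelin (SM22), was read on all 24 arrays but followed the slide more than the line. On slide 1 its 8 arrays lay between -2.38 and -1.52. On slides 2 and 3 the other 16 lay between -1.17 and 0.52, with no overlap. Of its variance within lines, 81.8% went with slide. The fitted difference of D from M was -0.02 ± 0.63 (SE), and within slides 1, 2 and 3 it was 0.30, 0.37 and -0.18. Tagln was not called in any of the 4 comparisons in which it was tested, those among the DB lines and J365 against M0, with or without slide as a block.

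Tpm2, a tropomyosin gene, showed a similar split, though with some overlap. Its 8 arrays on slide 1 lay between -5.03 and -3.14, against -3.81 to -0.91 on slide 2 and -3.58 to -2.32 on slide 3. Here 85% of the variance within lines went with slide, and the highest value, -0.91, was that of D replicate 3. Its difference from M was 0.22 ± 0.71 (SE) in D, 0.17 ± 0.72 in DB#1, -0.23 ± 0.77 in DB#2 and -0.05 ± 0.77 in DB#3. The second Tpm2 probe, assigned to another transcript, was read on D replicate 3 alone.

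Cnn1, the calponin of differentiated smooth muscle, was below background on 23 arrays. Both its probes were read on D replicate 3 alone, at -2.96 and -1.08. On that array 7 of 7 smooth muscle and pericyte markers and 7 of 8 fibroblast markers were also read, against 1 to 3 and 2 to 4 on the other D and DB arrays. So were 5 of 7 blood cell markers, 3 of 5 endothelial markers and 89.9% of all probes. The part of this array's background in its Cnn1 value was not tested.

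Tpm1, which encodes the main tropomyosin of stress fibres, was read on all 24 arrays by each of its 3 probes, which are assigned to 3 transcripts. By the probe used it stood at 3.73, 3.62 and 4.07 in M. It stood at 4.57, 4.38, 3.67 and 4.07 in D. In DB#2 the values were 3.16, 3.55 and 3.12, below every array of the other 4 melanoma lines. The difference from M was 0.37 ± 0.21 (SE) in D and -0.53 ± 0.22 in DB#2. By A_55_P2078680 the DB#2 arrays, at 0.86 to 1.07, were again below all others of the melanoma lines, and by A_55_P2187053, at 0.29 to 1.11, they overlapped with each of the other 4. Cnn2, the calponin of non-muscle cells, was likewise lowest in DB#2. Its arrays there stood at 1.48, 1.95 and 1.55, against 2.68, 2.52 and 2.82 in M, a difference of -1.01 ± 0.30. In D the Cnn2 arrays spread from 1.69 to 3.18 and overlapped with M.

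Cald1, which encodes caldesmon, set the melanoma lines apart from the myeloid ones but not from each other. Its line means by the probe used were 4.14 to 4.29 in the 5 melanoma lines, and its differences from M were between -0.14 and 0.00. It was read on no myeloid array and was at least 622-fold higher in M than in M0, and by its second probe at least 94.7-fold. Fscn1 was at least 4.39-fold higher in M than in M0. Tpm1 was read in both kinds of cell, with means of 3.81 in M, 1.96 in M0 and 2.22 in J365.

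**Figure D4:**
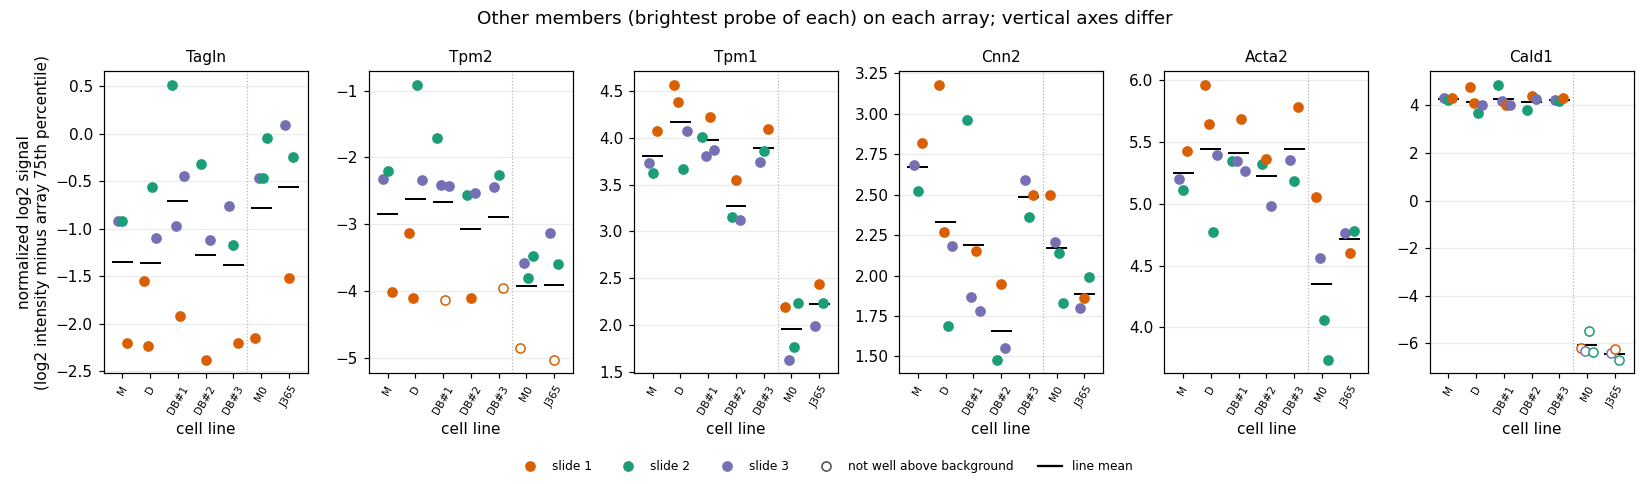
Normalized log2 signal (vertical axes, which differ between panels) of the probe used for Tagln, Tpm2, Tpm1, Cnn2, Acta2 and Cald1 on each array, by cell line (horizontal axis). Points are arrays, coloured by slide and open where not well above background, and black bars are line means. Slide 1 arrays of Tagln lie between -2.38 and -1.52, below all others, and Cald1 separates the 17 melanoma arrays from the 7 myeloid ones.

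The 3 DB lines were compared with one another by limma's moderated test. Melanoma results, which may include those of the DB lines, were known when the genes were chosen. These p-values may therefore not be independent of that choice, and the calls are given as a description of these arrays. Of the 9 members tested in DB#2 against DB#1, 1 was called at an adjusted p under 0.05, where 5.47% of all 21065 genes tested were called. It was Cgnl1, lower in DB#2 by a log2 difference of -2.16 ± 0.29 (SE; adjusted p = 5.45e-05). Of the 9 tested in DB#2 against DB#3, Cgnl1 was again the 1 called (4.44% of all genes), at -2.37 ± 0.31 (adjusted p = 3.86e-05). All 3 DB#2 arrays were below all 7 arrays of DB#1 and DB#3. Cgnl1 stayed called under each of the 16 and 14 alternative settings, with log2 differences of -2.26 to -1.27 against DB#1 and of -2.49 to -1.38 against DB#3. In the mean over probes, Cgnl1 was still the probe used alone, because its other probes were read on no DB array.

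Tpm1 and Myl9 did not pass in this test. They passed under some other settings, slide as a block among them. Tpm1 differed from DB#1 by -0.70 ± 0.21 (adjusted p = 0.0533) and from DB#3 by -0.62 ± 0.22 (adjusted p = 0.141), while with slide as a block the adjusted p was 0.00151 and 0.0107. Myl9 differed from DB#3 by -0.98 ± 0.30 (adjusted p = 0.0804, and 0.0382 with slide as a block) and from DB#1 by -0.56 ± 0.28 (adjusted p = 0.349). Without slide, Tpm1 passed against DB#1 under quantile scaling (0.0177), normexp (0.0344), the percentile over detected probes (0.0136), a fit of the compared arrays alone (0.0423) and the mean over probes (0.0347). Myl9 passed against DB#3 under the percentile over detected probes (0.0425) and in a fit of the compared arrays alone (0.048), and Tpm1 against DB#3 under the percentile over detected probes (0.0464). The blocked model called 2 of 9 members against DB#1 and 3 of 9 against DB#3, where it called 9.33% and 7.44% of all genes. Within each of the 3 slides both genes were lower in DB#2 than in DB#3, with differences of -0.69 to -0.55 for Tpm1 and of -1.27 to -0.79 for Myl9. Cnn2 differed from DB#3 by -0.82 ± 0.30 and was called in neither model (adjusted p = 0.157, and 0.0922 with slide as a block). Fscn1 had the opposite sign, at 0.37 ± 0.17 against DB#1 (adjusted p = 0.266) and 0.35 ± 0.18 against DB#3 (adjusted p = 0.416).

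In DB#3 against DB#1, 0 of 8 members tested were called by limma (0.229% of all genes), and 0 had an unadjusted p under 0.05. The difference of Myl9 was 0.41 (95% interval -0.18 to 1.00) and that of Cgnl1 0.21 (-0.40 to 0.82). These intervals still allow a difference of about 1 log2 unit in Myl9.

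**Figure D5:**
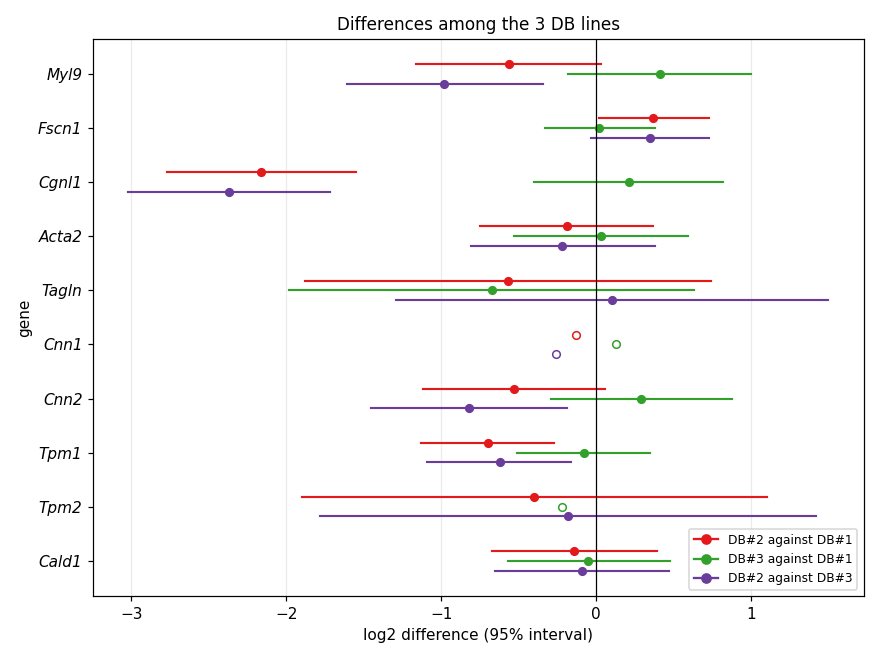
Log2 difference (horizontal axis) of the 10 members (vertical axis) between pairs of DB lines, with 95% intervals from limma. Open points were not read on every array of either line. Cgnl1 lies at -2.16 and -2.37 in the 2 comparisons of DB#2, and at 0.21 in DB#3 against DB#1.

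J365 was compared with M0 in the same way. Only 4 members were read well enough to be tested, and 0 were called or had an unadjusted p under 0.05 by limma, where 1.47% of all 20661 genes were called. The log2 differences were 0.36 for Acta2 (95% interval -0.21 to 0.92), 0.23 for Tagln (-1.09 to 1.55), -0.28 for Cnn2 (-0.88 to 0.31) and 0.27 for Tpm1 (-0.17 to 0.70). By the probe used, Myl9, Fscn1, Cgnl1, Cnn1 and Cald1 were read on no array of either line. Another Cgnl1 probe, A_52_P549032, was read on M0 replicate 4 alone of these 7 arrays, at -3.35. Tpm2 was not read on every array of either.

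The rest of the machinery was examined with 62 further genes in 8 lists, written by function: myosin chains, ROCK signalling, SRF and its cofactors, actin isoforms, calponin and tropomyosin relatives, actin bundlers, focal adhesion proteins and junction plaque proteins. In D against M, 2 of the 56 tested were called by limma (2.98% of all genes tested), 0 higher and 2 lower, where 1.39% of all genes were higher and 1.59% lower, and 12 had an unadjusted p under 0.05. The median log2 difference of the list was 0.00, and that of all genes tested -0.01. In DB#1 against M, 4 of 55 were called (3.69%), 2 higher and 2 lower (2.05% and 1.65% of all genes). In DB#2 against M, 4 of 56 were called (3.44%), 0 higher and 4 lower (2.15% and 1.28%). In DB#3 against M, 1 of 56 was called (2.76%), 0 higher and 1 lower (1.61% and 1.15%). In J365 against M0, 1 of 48 was called, and it was lower (0.721% of all genes were higher and 0.745% lower). The medians of the list in the 3 DB comparisons were 0.04, -0.06 and 0.08, against 0.04, 0.02 and 0.03 over all genes. The medians of the list thus lay within 0.08 of those of all genes. With slide as a block the calls were 6 in D against M, 1 higher and 5 lower, where 5.38% of all genes were called, and 6 in DB#1 against M, 3 higher and 3 lower, where 5.62% were.

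No call was made for the genes nearest to Myl9 in function. Myl12a and Myl12b encode the non-muscle regulatory light chains, and Myh9 the heavy chain of non-muscle myosin IIA. Their log2 differences from M were 0.09, -0.30 and -0.03 in D, 0.13, -0.07 and -0.02 in DB#1, -0.31, -0.17 and -0.25 in DB#2 and 0.11, -0.05 and 0.13 in DB#3, each with an SE of 0.16 to 0.26. Srf, Mrtfa and Mrtfb, the transcription factor and its cofactors, were read in every line, and their differences from M lay between -0.38 and 0.36, none of them called. With slide as a block Mrtfa was called higher in DB#1 (0.37, adjusted p = 0.0243). Myocd, the cofactor of muscle, was read on D replicate 3 alone. Actb and Actg1, the cytoplasmic actins, differed from M by -0.20 to 0.26 and were not called.

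Among the regulators of myosin, Ppp1r12a encodes the targeting subunit of the phosphatase that removes phosphate from the regulatory light chain. It was lower than in M by -0.88 ± 0.19 (SE) in D (adjusted p = 0.0119), by -1.02 ± 0.19 in DB#1 (adjusted p = 0.00257) and by -0.94 ± 0.21 in DB#3 (adjusted p = 0.011), all by limma. Its means were 4.79 in M, 3.90 in D, 3.77 in DB#1, 4.52 in DB#2 and 3.84 in DB#3. In DB#2 the difference was -0.27 ± 0.21 (adjusted p = 0.78). The call in DB#1 was kept in all 16 alternatives. The call in D was kept in 13 of 16, being lost without M replicate 1 (adjusted p = 0.0542), without M replicate 3 (0.108) or in a fit of the compared arrays alone (0.34), and that in DB#3 was kept in 10 of 14, being lost for example without M replicate 3 (0.0911), DB#3 replicate 3 (0.0527) or DB#3 replicate 4 (0.0711).

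Rnd3, whose product opposes ROCK, was higher in DB#1 by 0.72 ± 0.15 (adjusted p = 0.00746), with the call kept in 12 of 16 alternatives and lost without M replicate 2 (0.063) or M replicate 3 (0.0508). In D it differed from M by 0.54 ± 0.15 (adjusted p = 0.0634, and 0.0448 with slide as a block). Rock2, one of the ROCK kinases, was lower in DB#2 by -0.58 ± 0.16 (adjusted p = 0.0483), a call kept in 3 of 15 alternatives and lost when any 1 array of M or DB#2 was left out (adjusted p = 0.0527 to 0.25).

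Lcp1 encodes L-plastin, an actin bundler best known from blood cells. It was lower than in M by -2.45 ± 0.46 in DB#1 (adjusted p = 0.00195) and by -2.82 ± 0.49 in DB#2 (adjusted p = 0.000941), and both calls were kept in all alternatives. Its means were 0.26 ± 0.49 (SD, n = 3) in M, -2.19 ± 0.44 (n = 4) in DB#1 and -2.56 ± 0.50 (n = 3) in DB#2. In DB#3 the difference was -1.67 ± 0.49 (adjusted p = 0.0816) and in D it was -1.24 ± 0.45 (adjusted p = 0.206). The 4 arrays of D were far apart, from -1.70 to 0.79. Among the 7 blood cell markers, Coro1a was read on every M array and had its highest melanoma mean there, at -1.46, against -3.01 in D, -3.15 in DB#1, -2.07 in DB#2 and -3.13 in DB#3. Spi1 was read on 1 array of M and 1 of D and on none of the DB lines. Itgb2 went the other way in 2 lines, with means of -3.77 in M, -3.73 in D, -3.99 in DB#1, -3.40 in DB#2 and -3.25 in DB#3. It was read on 2 M arrays and on all of DB#2 and DB#3. Cd53 was read on no M array and on 1 array each of D and DB#1, and Laptm5 on 1 array of D alone. Ptprc and Vav1 were read on no melanoma array. The whole list gave array means of -5.44 to -4.93 in M, -5.80 to -3.52 in D and -5.80 to -5.07 in the DB lines, with 1 to 3 of 7 read in M. The part of blood cells in the Lcp1 level was not tested.

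Of the junction plaque genes, Tjp3, which encodes ZO-3, was lower by -1.0 ± 0.24 in D (adjusted p = 0.0225) and by -1.11 ± 0.26 in DB#2 (adjusted p = 0.0141), calls kept in 9 of 16 and 11 of 15. The first was lost without M replicate 1 (0.0762) or 3 (0.155) and without D replicate 3 (0.0553) or 4 (0.0604), and the second without M replicate 3 (0.0895), DB#2 replicate 1 (0.0844) or DB#2 replicate 3 (0.0554). Tjp3 was also lower than in M in the other 2 derived lines, without being called in the main model. Over its 2 probes the differences were -0.85 and -0.82 in DB#1 and -0.49 and -0.48 in DB#3. Plekha7, for an adherens junction protein, was lower in DB#2 by -0.49 ± 0.13 (adjusted p = 0.0468, kept in 3 of 15 and lost without any 1 array of M or DB#2). It was also the 1 list gene called in J365 against M0, by -0.64 ± 0.12 (adjusted p = 0.00596), where the call was kept in 12 of 16 alternatives. It was lost without J365 replicate 4 (adjusted p = 0.0631), with no scaling (0.15), with the replicate block (0.34) and in a fit of the compared arrays alone (0.21). Cgn, singled out after its values were seen because it encodes cingulin, the paralogue of the Cgnl1 product, differed from M by 1.16 to 1.49 in the 4 derived lines without being called (adjusted p = 0.215 to 0.404). All its arrays in those lines lay above all of M, narrowly so for D replicate 1 (-2.05) against M replicate 1 (-2.26). That pattern was seen in 1.3% of genes read in a melanoma line.

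The genes whose levels were most like those of Myl9 over the 17 melanoma arrays, among 13232 searched, were Tmem121 (Pearson r = 0.988), Il13ra1 (0.985), G0s2 (0.971), Pdgfrb (0.97) and Cyba (0.97). For Fscn1 they were Emilin1 (0.987), Il13ra1 (0.978), Olfml1 (0.974), Gsta4 (0.969) and Tmem121 (0.961). The 17 points are arrays of 5 lines on 3 slides, and the 3 M arrays lie far from the other 14, which sets most of each value. Over the 14 arrays without M, r with Myl9 was 0.887 for Tmem121, 0.722 for Il13ra1 and 0.763 for Cyba, and r with Fscn1 was 0.707 for Emilin1 and 0.277 for Olfml1. Between members, Myl9 and Cgnl1 had r = 0.92 over 17 arrays and 0.53 over 14. Myl9 and Fscn1 had 0.96 and 0.15, and Fscn1 and Cgnl1 had 0.82 and -0.53.

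Pdgfrb, a receptor found on pericytes and fibroblasts, belongs to the smooth muscle and pericyte marker list and moved with Myl9. It was read on all 14 arrays of D and the DB lines and on no M array, with line means of -6.32 in M and -2.95 to -2.10 in the derived lines. The whole list of 7 gave array means of -5.51 to -5.39 in M, -5.57 to -2.92 in D and -5.34 to -4.89 in the DB lines. Leaving aside D replicate 3, its members Rgs5, Lmod1, Synpo2 and Myocd were read on no melanoma array. The other 2 were read in M too. Des was read on all arrays of M, D, DB#2 and DB#3, with means of -2.17, -2.86, -2.36 and -3.07, and on 2 of 4 in DB#1. Myh11 was read on all 3 M arrays, on 3 of 4 in D and on 1 or 2 arrays of each DB line. The fibroblast list of 8 gave array means of -4.69 to -4.42 in M, -4.78 to -2.91 in D and -5.05 to -4.18 in the DB lines. The part of such cells in the level of Myl9 was not tested.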

How the data were processed

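Total RNA of the 7 cell lines was labelled with Cy3 and hybridised to Agilent single-colour mouse arrays of 62976 spots, and scans were read with Agilent Feature Extraction 10.7.3.1 (per the file headers). The deposited files hold processed signal intensity, background-subtracted by that software and not scaled between arrays. The series table that the authors deposited held 1511424 values, all of which equalled those intensities within a relative tolerance of 1e-06. 0 pairs of arrays were identical. Mapping of the samples to lines came from the labels.

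From 59305 non-control spots, averaged to 56605 probes, 117 probes flagged as outliers were left out, and 0 spots were saturated. Intensities were converted to log2 and the 75th percentile of each array was subtracted. Probes were named through RefSeq transcripts, which gave 32917 named probes and 22881 symbols. The probe brightest on average stood for its gene. limma 3.58.1 in R 4.3.3 (with version 1.17.8 of data.table) was fitted to all 24 arrays with 1 coefficient for each line, leaving 17 residual degrees of freedom, and eBayes was run over genes read on all arrays of at least 1 of the lines compared. Calls were made at a Benjamini-Hochberg adjusted p under 0.05, and tests are two-sided. The number of arrays limits the precision. Comparisons that share M or a DB line share its arrays.

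The 10 genes, the pathway lists, the markers and the tests were chosen with earlier results of these data known. Besides the 10 genes, the text names 9 pathway genes always, the called pathway genes of each comparison (at most 4 in each direction) and the 5 genes most correlated with Myl9 and with Fscn1. One called pathway gene is counted but not reported here by name. Alternatives were quantile scaling, normexp with an offset of 50, the percentile over probes detected on all arrays, no scaling, no filter on dim probes, slide or replicate number as a block, only the arrays compared, the mean over probes, and leaving out each array. Normexp was run on median signals, because mean signals were not among the columns used here. Same-numbered arrays of DB#1 and M deviated together (r = 0.65, 0.57 and 0.91). In the other pairs of lines that shared numbers, r ran from -0.8 to 0.85. The main model had no replicate term, so DB#1 against M was tested unpaired. The replicate block entered the numbers for all lines at once, as an alternative only. Scripts were tested on simulated data. Promoters came from RefSeq (GRCm38.p6), plots from matplotlib 3.10.9.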

Additional observations from a re-analysis of the deposited data

Results flagged for a closer look

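Of 78 groups of 4 arrays checked, 4 held an array far from the other 3 by Dixon's criterion, which chance would give in about 1 in 20 groups. Lcp1, the L-plastin gene, stood at 0.79 on D replicate 1 and at -1.70 to -1.39 on the other D arrays. Tjp3, for ZO-3, stood at 0.19 on D replicate 2, against -0.51 to -0.41 on the other D arrays. Mrtfa, a cofactor of SRF, stood at 3.57 on DB#1 replicate 3, against 3.30 to 3.33. Rnd3, whose product opposes the kinase ROCK, stood at -6.01 on M0 replicate 1, against -6.30 to -6.29, and was below background on each of these. The difference of D from M was tested against that of J365 from M0, and limma called 0 of 57 pathway genes (7 had an unadjusted p under 0.05) and 480 of 23124 genes. With slide as a block Tjp3 passed (-1.08 ± 0.34 by the model without it, adjusted p = 0.148, and 0.0169 with it).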

How the results depend on the processing

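No called difference changed sign. Over single genes and alternatives, 577 values kept their side of the threshold (some uncalled values near 0 changed sign), 60 lost a call and 11 gained one. With slide as a block, pathway calls were 6 in D against M and 2 in J365 against M0, and member calls 2 in DB#2 against DB#1 and 3 in DB#2 against DB#3. With the replicate block, pathway calls were 4 in D against M, 6 in DB#1 against M, 3 in DB#2 against M and 0 in J365 against M0, and the member calls did not change; the block could not be fitted for DB#3 against M or DB#2 against DB#3. Quantile scaling gave 4 pathway calls in D, 2 in DB#3 and 3 in J365, and 2 members in DB#2 against DB#1. Normexp gave 1 in D, 2 in DB#2, 2 in DB#3 and 2 in J365, and 2 members in DB#2 against DB#1. The percentile over detected probes gave 5 in D, 3 in DB#3 and 2 in J365, with 2 members in DB#2 against DB#1 and 3 against DB#3. No scaling gave 2 in J365. No filter gave 1 in D and 1 in DB#2. The arrays compared alone gave 0 in D and 0 in J365, with 2 members in each DB#2 comparison, and the mean over probes gave 2 in DB#3 and 2 members in DB#2 against DB#1. Causes were not tested.

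With 1 array left out, pathway calls ranged from 0 to 4 in D (0 without M replicate 1 or 3, and 4 without D replicate 1), 2 to 4 in DB#1 (2 without M replicate 2 or 3), 1 to 2 in DB#2 (any M or DB#2 array), 0 to 1 in DB#3 (0 without M replicate 3, DB#3 replicate 3 or DB#3 replicate 4) and 0 to 1 in J365 (0 without J365 replicate 4). Member calls stayed at 1 in both DB#2 comparisons and at 0 in DB#3 against DB#1 and J365 against M0. The 3 members above M stayed 3 without D replicate 1 or D replicate 3, leave-outs chosen after the data were seen. Probes near background have only a bound, which limits Myl9 and Cgnl1 in M.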
